A study of Mus musculus with 53 samples.

Results

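Of the 53 samples of the series, 18 liver tumors were compared here: the 9 that kept the most Mup3 RNA and the 9 that held the least. They were selected on Mup3 itself, by ranking the 28 liver tumors other than the dim tumor 13 on the log2 value that the authors deposited, and the 9 highest (Mup3-high) were set against the 9 lowest (Mup3-low), with the other 10 called middle. All carried floxed Mad2l1 (Mad2f/f), a gene of the spindle assembly checkpoint, with Alb-Cre, which drives recombination in developing hepatocytes, on a mixed B6-129Sv background, and floxed Trp53 on both alleles (p53 f/f) or on 1 allele (p53 f/+). The 10 healthy livers came from healthy mice and serve here only as a reference level. RNA from dissected tissue was hybridized to Illumina mouse bead arrays. The tumor labels give neither the age nor the sex of an animal and do not say which tumors were adenomas (HCA) and which carcinomas (HCC). In the study the liver tumors profiled for expression are called HCCs. The study described recombined and unrecombined Mad2l1 in the carcinomas, and resected tumors hold infiltrating and surrounding cells, so that in these bulk samples fewer cells of a type and less RNA per cell cannot be told apart.

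Major urinary proteins are small carriers that hepatocytes secrete in large amounts, more in males than in females, under growth hormone acting through STAT5. They are encoded by a cluster of near-identical genes, so a probe for one member may also bind RNA of another. Cyp8b1, the second gene used to describe the groups, encodes the sterol 12-alpha-hydroxylase that sets the proportion of cholic acid among bile acids. Both are genes of the differentiated hepatocyte.

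The promoters of 3 Mup genes are shown because the probes of this family were read side by side and because the genes are so alike. RefSeq sequences (GRCm38.p6) ran from 250 bases before to 50 after the annotated start of Mup3 (chr4:62087268-62087567, minus strand), Mup2 (chr4:60139807-60140106, minus strand) and Mup21 (chr4:62150792-62151091, minus strand). Capitals mark the bases that differ from Mup3 or are not aligned with it inside the aligned stretch. The Pon1 promoter (chr6:5193897-5194196, minus strand) is shown for the called gene with the largest difference.
Mup3: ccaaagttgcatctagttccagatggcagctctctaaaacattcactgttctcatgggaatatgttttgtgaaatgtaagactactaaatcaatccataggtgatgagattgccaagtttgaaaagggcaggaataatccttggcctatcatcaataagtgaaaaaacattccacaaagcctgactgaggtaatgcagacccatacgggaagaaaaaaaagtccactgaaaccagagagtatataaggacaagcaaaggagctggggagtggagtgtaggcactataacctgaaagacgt
Mup2: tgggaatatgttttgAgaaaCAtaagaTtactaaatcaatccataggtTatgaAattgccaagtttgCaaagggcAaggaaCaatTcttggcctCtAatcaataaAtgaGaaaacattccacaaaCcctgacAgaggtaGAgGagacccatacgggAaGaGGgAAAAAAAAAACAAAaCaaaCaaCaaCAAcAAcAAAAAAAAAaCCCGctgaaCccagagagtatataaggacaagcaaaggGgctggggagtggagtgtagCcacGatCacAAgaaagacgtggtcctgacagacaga
Mup21: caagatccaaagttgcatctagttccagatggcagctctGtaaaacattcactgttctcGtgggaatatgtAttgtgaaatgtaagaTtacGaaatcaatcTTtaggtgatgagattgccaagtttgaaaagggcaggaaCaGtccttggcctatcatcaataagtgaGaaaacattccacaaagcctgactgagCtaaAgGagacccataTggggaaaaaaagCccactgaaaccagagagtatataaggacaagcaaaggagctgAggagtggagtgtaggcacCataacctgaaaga
Pon1: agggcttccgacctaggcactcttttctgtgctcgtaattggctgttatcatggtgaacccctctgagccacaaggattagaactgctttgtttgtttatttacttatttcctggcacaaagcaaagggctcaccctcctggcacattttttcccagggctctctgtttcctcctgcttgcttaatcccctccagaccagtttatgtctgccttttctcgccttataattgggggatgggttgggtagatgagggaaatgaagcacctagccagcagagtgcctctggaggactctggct

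Mup21 was identical to Mup3 at 277 of 297 aligned bases (93.3%), Mup6 at 250 of 282 (88.7%) and Mup2 at 219 of 284 (77.1%). The letters TTCNNNGAA, the core of a STAT5 motif, and GTTAAT, a core of the HNF1 motif, were searched on both strands. None of the promoters of Mup3, Mup2, Mup6, Mup21, Cyp8b1 and Pon1 held either run of letters in this window, while 8.298% of 32851 promoters of the same length held the first and 7.099% the second.

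Mup3 spanned a wide range within the Mup3-high tumors. On the authors' log2 scale, which was used for the ranking, the Mup3-high tumors lay between 12.93 and 9.15, the middle tumors between 8.55 and 8.14 and the Mup3-low tumors between 8.13 and 7.86. The upper border therefore fell in a gap (9.15 in the last tumor inside, 8.55 in the first outside), whereas the lower border had no gap (8.13 inside, 8.14 outside). All further values are normalized log2 intensities computed from the deposited array signals (neqc), for which tumor 12, a Mup3-low tumor, had no signal column, leaving 9 against 8 tumors. On this scale Mup3 was 13.19, 12.51 and 12.42 in tumors 20, 24 and 23, between 10.84 and 10.94 in tumors 2, 17, 15 and 11, and 9.17 and 8.92 in tumors 3 and 18. In the 8 Mup3-low tumors it lay between 4.59 and 6.09 (median 5.61), and it was above background (detection p under 0.05) in 5 of them. The lowest values for a probe above background averaged 5.52 per array, so that the Mup3-low values are close to the lower limit of the arrays.

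No tumor reached the healthy level of Mup3. Healthy livers 2 to 10 held Mup3 at 14.32 to 15.45, whereas the library labelled healthy liver 1 held 4.68, below the median of the Mup3-low tumors, and is left out of the healthy reference unless stated. As a percentage of the healthy median, on the linear scale, Mup3 was 28.4% in tumor 20, 17.7% in tumor 24, 16.5% in tumor 23, 5.51 to 5.94% in tumors 2, 17, 15 and 11, 1.70% in tumor 3 and 1.42% in tumor 18. The median was 5.77% in the Mup3-high and 0.102% in the Mup3-low tumors, and with healthy liver 1 in the reference the former was 5.82%. The Mup3-high tumors thus kept between 1.42 and 28.4% of the healthy level, and the group is not uniform.

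**Figure D1:**
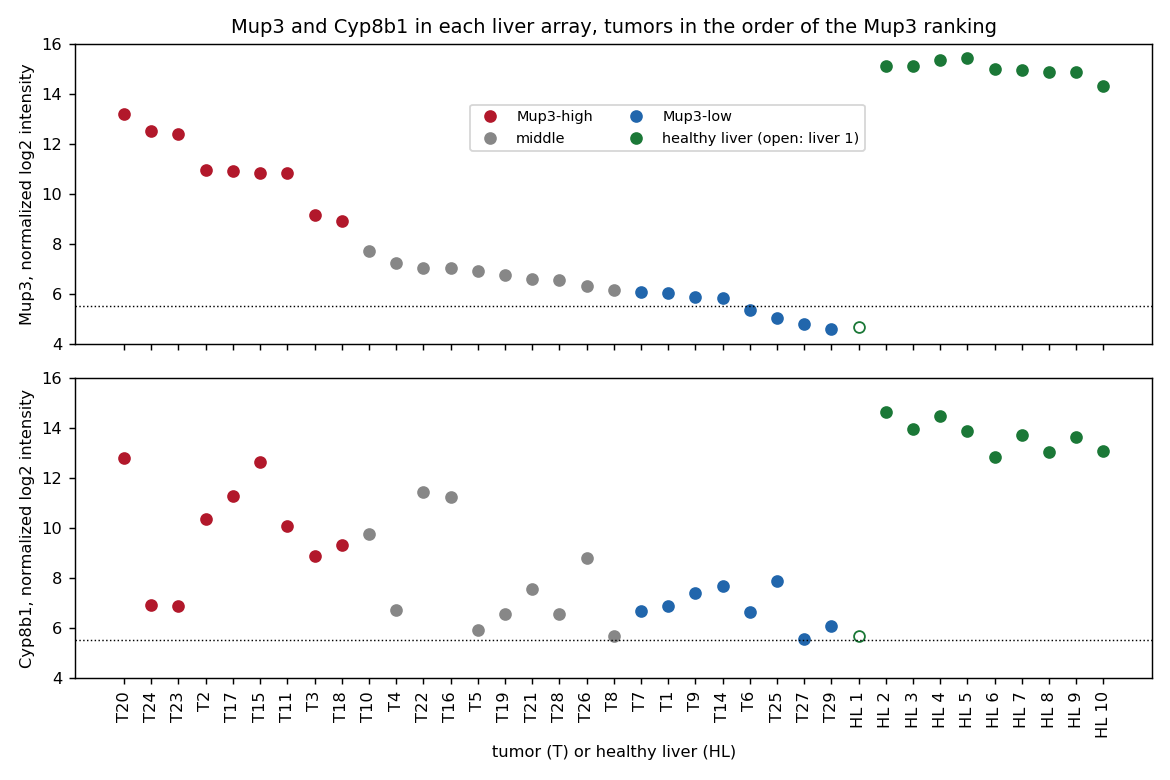
Normalized log2 intensity of Mup3 (top) and Cyp8b1 (bottom) in each liver array, with 1 point per array, tumors in the order of the Mup3 ranking and the mean lowest detected level as a dotted line. Mup3 separates the groups because it chose them, and Cyp8b1 is as low in tumors 24 and 23 (6.92 and 6.90) as in Mup3-low tumors.

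The Mup genes and Cyp8b1 are described without a test, as the family may share the probe signal that chose the tumors and Cyp8b1 was named with the groups. Mup2, the most intense Mup probe, ran from 7.88 to 15.68 (median 13.68) in the Mup3-high and from 5.31 to 9.33 (median 7.47) in the Mup3-low tumors. It did not follow Mup3 tumor by tumor: tumors 20 and 17 held 100% and 95.4% of the healthy median, and tumor 23, the third in Mup3, held 0.417%. The healthy Mup2 values (15.61 to 15.78) reached the highest value on the arrays, 15.78. All percentages of Mup2 may therefore be too high, and those near 100% may be set by that limit. Mup6 ran from 5.53 to 11.49 against 4.73 to 6.41. Mup21 ran from 8.82 to 11.94 against 6.48 to 9.74, so that the groups overlapped. Mup20 (darcin, a male pheromone) and Mup5 were near background in most tumors, being detected in 7 and 5 of the 9 Mup3-high and in 3 and 3 of the 8 Mup3-low tumors. Of the 21 Mup genes listed, 6 were measured.

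Cyp8b1 ran from 6.90 to 12.82 (median 10.10) in the Mup3-high and from 5.58 to 7.91 (median 6.81) in the Mup3-low tumors. Of the healthy median, tumor 20 kept 52.8%, tumor 15 47.7% and tumor 17 18.5%. Tumors 24 and 23 kept 0.770% and 0.756%, which is within the range of the Mup3-low tumors (0.233 to 1.65%). Cyp8b1 was therefore above every Mup3-low tumor in all Mup3-high tumors except 24 and 23, whereas Mup3 was so by the choice of tumors. Middle tumors 22, 16, 10 and 26 were also above every Mup3-low tumor in Cyp8b1 (11.46, 11.27, 9.76 and 8.83). High Cyp8b1 was thus not particular to the Mup3-high tumors.

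All other genes were tested with limma, with the 27 tumors as Mup3-high, middle and Mup3-low and the animal as a random block. The groups are the ends of a single ranking of tumors, so each test asks whether a gene goes with Mup3 across tumors. The labels do not say that tumors of an animal are independent, 16 animals gave the 18 tumors, and p-values measure only the spread between these tumors. At an adjusted p under 0.05, 2 of 11560 genes were higher in the Mup3-high tumors (0.0173%) and 3 were lower (0.026%), or 5 in all (0.0433%). At an unadjusted p under 0.05 there were 822 higher (7.11%) and 712 lower (6.16%), or 1534 in all (13.3%). All 5 calls had an adjusted p of 0.0484, close to the threshold, and 12 of 17 fits that each left out 1 tumor made no call. Without the animal block there was no call (1430 genes at an unadjusted p under 0.05), nor with the authors' log2 values and tumor 12 (1764 genes). The 5 genes kept their direction in all of these fits.

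Pon1 encodes paraoxonase 1, a hepatocyte enzyme that circulates on high-density lipoprotein. It was 13.17, 11.93, 10.44, 10.96, 11.93, 13.73, 9.93, 10.34 and 10.85 in the Mup3-high tumors, in the order of the Mup3 ranking. It ran from 5.30 to 9.35 (median 8.29) in the Mup3-low tumors and averaged 10.49 in the middle tumors and 13.76 in healthy livers 2 to 10. Every Mup3-high tumor was above every Mup3-low tumor, and tumor 15 was at 87.0% of the healthy median. The fitted difference was 3.41 (SE 0.66) on the log2 scale (limma, adjusted p = 0.0484). Within the Mup3-high group the order differed from that of Mup3, with tumor 15 highest.

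Khdrbs3 encodes an RNA-binding protein of the STAR family (also called SLM2 or T-STAR) that acts in splicing. It ran from 5.63 to 7.93 (median 7.05) in the Mup3-high tumors, where it was detected in 9 of 9, and from 4.88 to 5.43 (median 5.13) in the Mup3-low tumors, where it was detected in 1 of 8. Healthy livers 2 to 10 averaged 7.75. The groups did not overlap, and the fitted difference was 1.83 (SE 0.33) (limma, adjusted p = 0.0484), its size being imprecise because most Mup3-low values were at background. Pon1 and Khdrbs3 were among 4 of 11560 genes (0.0346%) whose groups did not overlap.

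The 3 called lower genes were nearer to the healthy level in the Mup3-high tumors. Trip6, a LIM-domain adaptor of cell adhesion and signaling, ran from 8.78 to 9.64 (median 9.11) in the Mup3-high and from 9.61 to 10.45 (median 9.92) in the Mup3-low tumors, against a healthy mean of 8.53, and fell by 0.77 (SE 0.15). Grip1, a scaffold protein with PDZ domains known from synapses, ran from 4.83 to 6.71 (median 5.69) and from 5.68 to 9.38 (median 7.83), against a healthy mean of 5.12, and fell by 2.07 (SE 0.40). It was detected in 5 of 9 Mup3-high and 8 of 8 Mup3-low tumors, so its lowest values are near background. Slc41a3, a magnesium transporter of mitochondria, ran from 5.34 to 8.76 (median 6.96) and from 7.89 to 9.55 (median 8.61), against a healthy mean of 5.20, and fell by 1.87 (SE 0.36). Each group pair overlapped in these 3 genes, and each adjusted p (limma) was 0.0484.

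**Figure D2:**
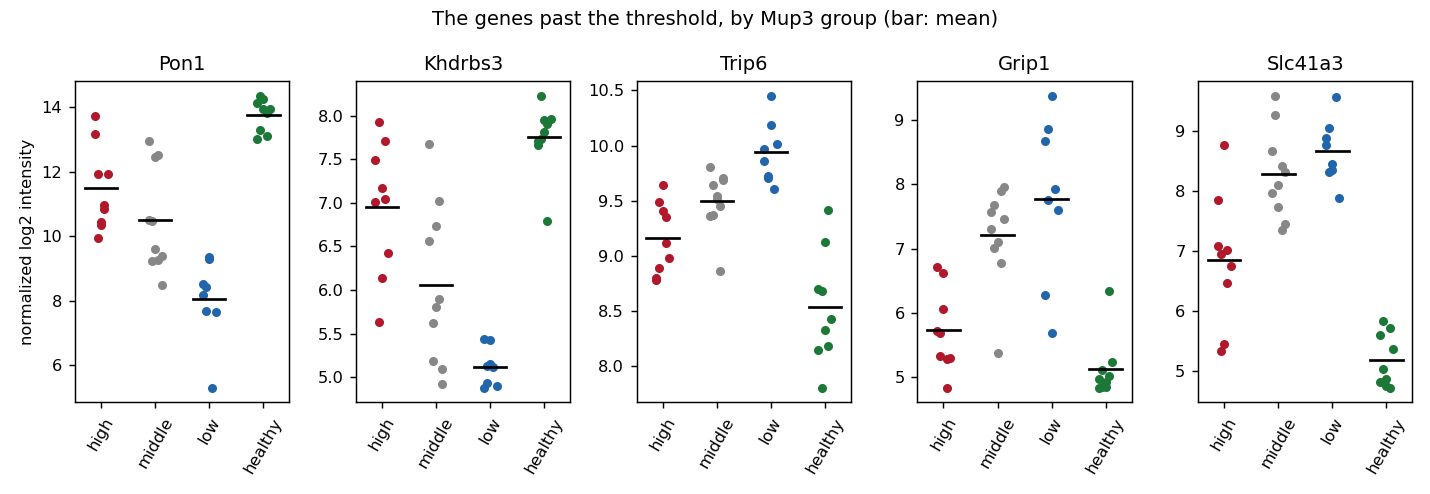
Normalized log2 intensity of the 5 called genes, with 1 point per array for the Mup3-high, middle and Mup3-low tumors and healthy livers 2 to 10, and the group mean as a line. Pon1 and Khdrbs3 do not overlap between the Mup3-high and Mup3-low tumors, and the middle tumors average between them in all 5 genes.

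The calls held their direction on chips but not within every animal. A single animal gave Mup3-high tumor 2 and Mup3-low tumor 1, and another gave tumors 15 and 14. Pon1 was higher in the Mup3-high tumor of these pairs by 2.54 and 8.43, and Khdrbs3 by 2.58 and 2.37. These sizes are imprecise where the Mup3-low tumor was at or near background, as for Pon1 in tumor 14 (5.30) and Khdrbs3 in tumors 1 and 14 (5.13 and 5.12). Trip6, Grip1 and Slc41a3 were lower in the Mup3-high tumor of both pairs. In 4 further animals a Mup3-high tumor can be set against a middle tumor. Grip1 and Slc41a3 were lower in the Mup3-high tumor in all 4. Pon1 was lower in it in 3 of the 4, with differences of -0.14 and -0.59 and, in the largest, 10.44 in tumor 23 against 12.44 in middle tumor 22, and higher by 3.93 in the other. Khdrbs3 was higher in 3 (0.44 to 1.39) and differed by -0.60 in the other, and Trip6 was lower in 2 (-0.84 and -0.11) and higher in 2 (0.28 and 0.12). On each of the 3 bead chips that held tumors of both groups, all 5 genes differed in the called direction. Among all genes, 48.6% were higher in tumor 15 than in tumor 14 and 49.6% in tumor 2 than in tumor 1. These pairs and chips are part of the fit and are no separate test. Within the 10 middle tumors, which belong to neither end and span 1.56 in Mup3, the slope on Mup3 was positive for Pon1 and Khdrbs3 and negative for the other 3, while it was positive for 48.9% of all genes.

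A slope of each gene on the normalized Mup3 value over all 27 tumors used the whole range instead of the ends. It called 300 genes higher (2.6%) and 292 lower (2.53%) of 11560 (limma, adjusted p under 0.05), all 5 genes above among them. The number changed with the tumors highest in Mup3 left out: it was 21 higher and 29 lower without tumor 24, 53 and 69 without tumor 23, and 525 and 357 without tumor 20. Without all 3 there was no call, at 1074 genes with an unadjusted p under 0.05. Slope calls below therefore depend on tumors 24 and 23, while leaving out tumor 20 raised the count. The fits without these tumors were chosen after seeing the data.

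The hepatocyte and tumor programs that go with Mup3 were described with gene lists, by the number of members that passed the test, the number with a positive difference and the median difference. Over all 11560 genes the median difference was 0.01. No member of any list passed the adjusted threshold in the comparison of groups. Genes named below that were not called were chosen after their values were seen, except Igf2, Mad2l1, Met, Myc, Top2a and Xist.

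**Figure D3:**
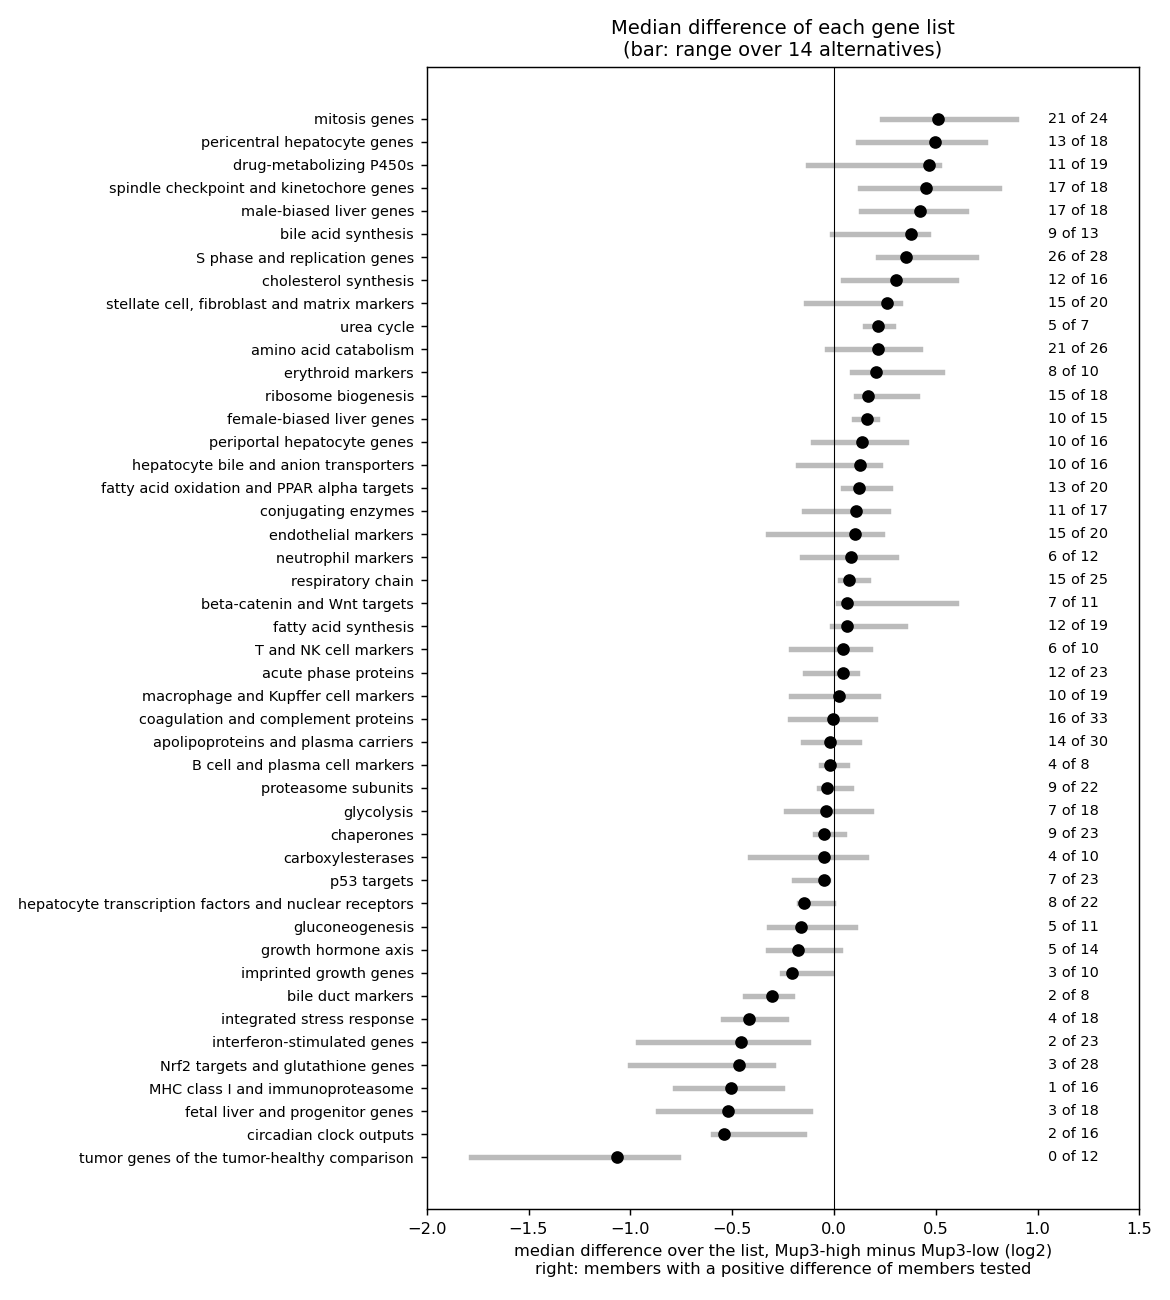
Median difference of each gene list, Mup3-high minus Mup3-low, on the log2 scale (point), with the lowest and highest median over 14 alternative settings (gray bar) and the number of members with a positive difference (right). Mitosis genes lie highest at 0.51 and the genes chosen as tumor genes lowest at -1.07, and the plasma protein lists lie at about 0.

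Pericentral genes, which hepatocytes near the central vein use for drug, glutamine and bile acid metabolism, were on balance higher in the Mup3-high tumors. Of 18 tested, none was called, 7 were higher and none lower at an unadjusted p under 0.05, 13 had a positive difference, and the median was 0.49. Cyp2e1, an ethanol- and drug-oxidizing P450, ran from 7.61 to 15.04 (median 11.99) against 5.31 to 11.52 (median 8.63), a difference of 3.35 (SE 0.93; limma adjusted p = 0.17). Its mean in the middle tumors, 12.47, was above that of the Mup3-high tumors, 11.84. Slc1a2, a glutamate transporter of the pericentral layer, reached 11.13 and 10.77 in tumors 20 and 15 but was not detected in tumors 2 and 11 (4.86 and 5.02). Oat, ornithine aminotransferase, averaged 11.18 against 8.64, a difference of 2.46 (SE 0.79; adjusted p = 0.21). Tbx3, a transcription factor downstream of Wnt signaling, averaged 6.46 against 4.75 and was detected in 7 of 9 against 1 of 8 tumors (difference 1.73, SE 0.43; adjusted p = 0.14). Axin2, a Wnt feedback gene, reached 8.77 in tumor 15 and was detected in 6 of 9 against 0 of 8 tumors.

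The pericentral difference was carried by some of the Mup3-high tumors. The median deviation of the 18 genes from their 27-tumor means was 1.88 in tumor 15, 1.43 in tumor 20, 0.92 in tumor 17 and 0.53 in tumor 18. It was between -0.72 and -0.03 in tumors 24, 23, 2, 11 and 3, inside the range of the Mup3-low tumors (-1.02 to -0.06) but for tumor 3 (-0.03). Middle tumors 16, 10 and 22 were at 1.18, 1.04 and 0.97, above every Mup3-high tumor but 15 and 20. Over the list, the median of the middle mean less the Mup3-low mean was 0.73. High pericentral genes were thus not particular to the Mup3-high tumors. Drug-metabolizing P450s had a median of 0.47, with 11 of 19 positive, and Cyp2a5 (-1.70) differed in the opposite direction to Cyp2c37 (2.28) and Cyp2c54 (1.93). This list's median ran from -0.13 to 0.51 over the alternatives, and its median of the middle mean less the Mup3-low mean was 0.52.

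Bile acid synthesis had a median of 0.38 over 13 genes other than Cyp8b1, with 9 positive, 6 higher and none lower at an unadjusted p under 0.05. Cyp7a1, the rate-limiting enzyme, ran from 6.94 to 12.68 (median 10.14) against 5.14 to 9.77 (median 6.25). The difference was 3.01 (SE 0.95; limma adjusted p = 0.21), and its slope on Mup3 was called (adjusted p = 0.0306). Scp2, the sterol carrier that also acts in side chain shortening, differed by 0.47 (SE 0.12; adjusted p = 0.14) and was called in the slope fit too. Over the alternatives the list's median ran from -0.01 to 0.46. Of the 16 hepatocyte transporters, the slope was called higher for Slc22a28 and Slc22a30, organic anion transporters, and lower for Abcc4, an efflux pump of the sinusoidal side, and for Abcg5 and Abcg8, which together export cholesterol to bile. Abcc4 ran from 5.18 to 11.80 against 9.34 to 12.60, a difference of -1.95 (SE 0.68; adjusted p = 0.25).

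Male-biased liver genes had a median of 0.42, with 17 of 18 positive and 3 higher at an unadjusted p under 0.05. C6, a complement protein, ran from 8.78 to 11.64 (median 10.43) against 5.15 to 11.82 (median 7.23), a difference of 2.31 (SE 0.75; limma adjusted p = 0.21). Female-biased genes had a median of 0.16 (10 of 15 positive), and the growth hormone axis -0.18 (5 of 14). Igf1, the hormone that growth hormone induces in liver, averaged 1.65 higher (SE 0.68; adjusted p = 0.31). Xist, the RNA of the inactive X chromosome of females, was detected in 1 of 9 Mup3-high and 3 of 8 Mup3-low tumors (Fisher's exact test, two-sided p = 0.294), and in tumor 20, the highest in Mup3, it was 8.77. With Xist detection as a covariate no gene was called (1608 at an unadjusted p under 0.05), and the part of sex in the Mup3 ranking was not tested further.

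Abundant plasma proteins were close to equal in the groups. Apolipoproteins and plasma carriers had a median of -0.02 (14 of 30 positive), and coagulation and complement proteins of about 0 (16 of 33 positive). Apoa1, the main protein of high-density lipoprotein, was at a median of 106% of the healthy level in the Mup3-high and 108% in the Mup3-low tumors. Transferrin (Trf) was at 102 and 103%, and transthyretin (Ttr) at 74.9 and 70.6%. The Apoa1 and Trf probes were close to the highest value on the arrays (15.78), so that a difference between groups may not be seen with them. Ttr ran from 62.0 to 97.7% in the Mup3-high and from 62.0 to 104% in the Mup3-low tumors. The Alb probe was at background in healthy livers (mean 4.97) and so cannot serve as a hepatocyte marker here. It was above background in 0 of 9 Mup3-high, 3 of 10 middle and 4 of 8 Mup3-low tumors, with 7.34 at most in the Mup3-low tumors.

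Genes of dividing cells were on balance higher in the Mup3-high tumors. Mitosis genes had a median of 0.51 with 21 of 24 positive, spindle checkpoint and kinetochore genes 0.45 with 17 of 18, and S phase genes 0.35 with 26 of 28. None of them was called, and at an unadjusted p under 0.05 there were 0, 3 and 4 higher and none lower. Top2a, the topoisomerase of replicating cells, ran from 6.08 to 9.53 (median 7.67) against 5.04 to 8.49 (median 6.95), a difference of 0.82 (SE 0.54; limma adjusted p = 0.51). Mad2l1, the floxed checkpoint gene, ran from 6.15 to 9.15 (median 7.47) against 5.70 to 7.99 (median 7.39), a difference of 0.66 (SE 0.43; adjusted p = 0.51). Its deleted allele cannot be read from these values, since the position of the probe relative to the deleted exons was not determined. In the slope fit Spc24, a kinetochore protein of the Ndc80 complex, and Zwilch, a checkpoint protein of the kinetochore corona, were called higher.

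The Mup3-high tumors were split in these genes. The median deviation of mitosis genes was 2.10 in tumor 24, 1.53 in tumor 2, 1.15 in tumor 11 and 0.93 in tumor 23, but -1.19 in tumor 20, -1.03 in tumor 15, -0.72 in tumor 18 and -0.38 in tumor 17. These first 4 were above every Mup3-low tumor (-2.02 to 0.89), as were middle tumors 26 and 5 (1.08 and 0.91). Read with the pericentral genes, the tumors high in mitosis genes (24, 2, 11 and 23) were low in pericentral genes, and those high in pericentral genes (20, 15, 17 and 18) were low in mitosis genes, with tumor 3 between (0.31 and -0.03). Tumors 15, 17 and 18 were the p53 f/+ tumors of the group. The Mup3-low tumors included 2 p53 f/+ tumors of 9, against 3 of 9 (Fisher's exact test, two-sided p = 1).

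Targets of Nrf2, the factor that switches on glutathione and detoxifying genes under oxidative stress, were on balance lower in the Mup3-high tumors. Of 28 tested none was called, 25 had a negative difference, 3 were lower and none higher at an unadjusted p under 0.05, and the median was -0.46. The median deviation of the 28 genes from their 27-tumor means was -1.97 and -1.80 in tumors 24 and 23. In the other Mup3-high tumors it was between -0.55 and 0.57, inside the range of the Mup3-low tumors (-0.69 to 0.59). Cbr3, a carbonyl reductase, was 11.04, 6.64, 7.65 and 7.20 in tumors 20, 24, 23 and 2 and 12.77 to 14.68 in the other 5 Mup3-high tumors. It ran from 9.91 to 14.38 (median 13.99) in the Mup3-low tumors, against a healthy mean of 6.99. Slc7a11, the cystine importer, was 4.87, 4.69, 4.67 and 6.79 in tumors 20, 24, 23 and 2 and 8.00 to 11.92 in the others, against 5.67 to 12.29 (median 10.24) in the Mup3-low tumors. The differences were -2.24 (SE 0.92; limma adjusted p = 0.30) and -1.89 (SE 0.98; adjusted p = 0.41). The 4 tumors highest in Mup3 were thus the lowest of the Mup3-high tumors in both genes. In the slope fit 7 of the 28 were called lower and none higher (Cbr1, Slc7a11, Cbr3, Tkt, Gsta1, Srxn1 and Gsta4). The 12 genes chosen from the comparison of these tumors with healthy livers, a list taken from the same arrays, all had a negative difference (median -1.07), and 4 were called lower in the slope fit (Slc7a11, Cbr3, Timp1 and Cd14).

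**Figure D4:**
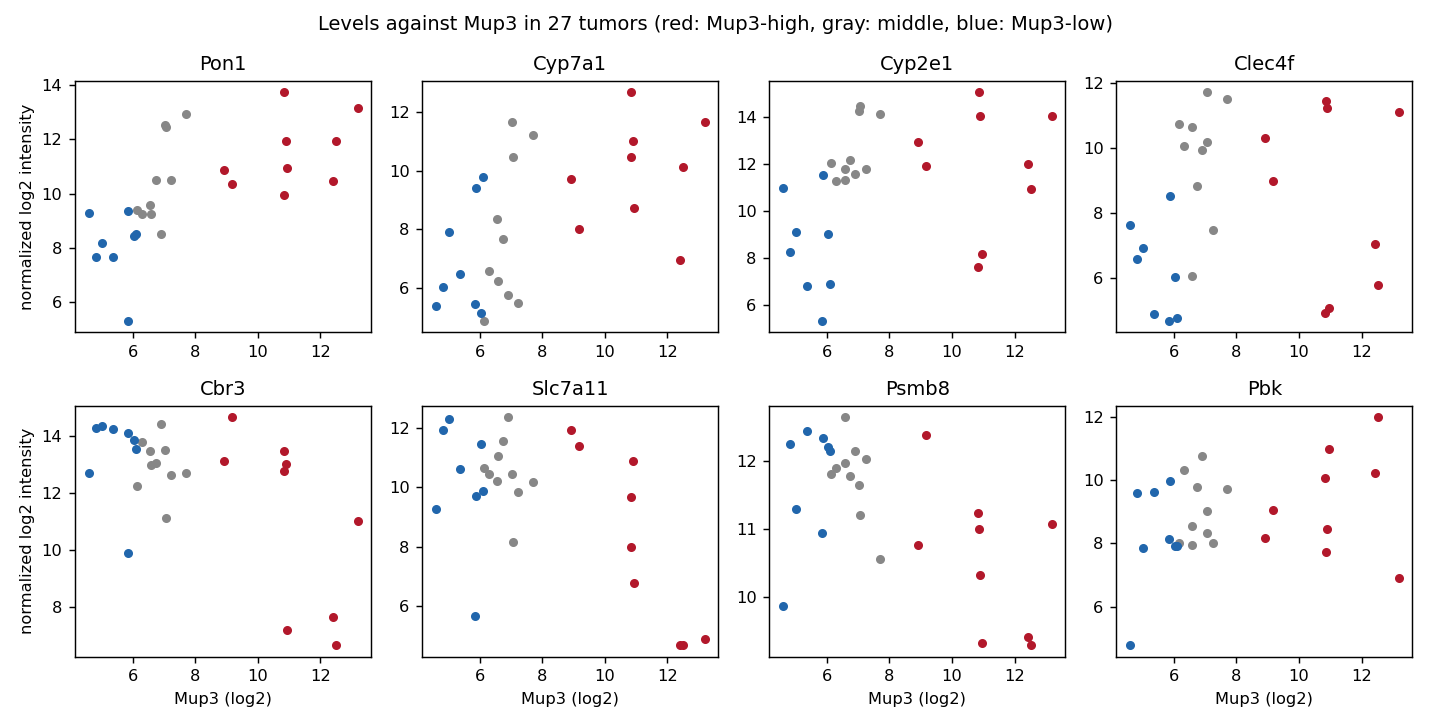
Normalized log2 intensity of 8 genes (vertical), namely Pon1, Cyp7a1, Cyp2e1, Clec4f, Cbr3, Slc7a11, Psmb8 and the mitosis gene Pbk, against that of Mup3 (horizontal), with 1 point per tumor colored by group. Slc7a11 is lowest in the 3 tumors with the most Mup3 (4.67 to 4.87), Cbr3 is lowest in tumors 24, 23 and 2 (6.64 to 7.65), and Pon1 is above all Mup3-low tumors in every Mup3-high tumor.

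Antigen presentation genes were on balance lower in the Mup3-high tumors as well. Of 16 genes of MHC class I and the immunoproteasome none was called, 15 had a negative difference, 6 were lower and none higher at an unadjusted p under 0.05, and the median was -0.51. Psmb8, a catalytic subunit of the immunoproteasome, ran from 9.28 to 12.39 (median 10.77) against 9.86 to 12.44 (median 12.18), a difference of -1.13 (SE 0.39; limma adjusted p = 0.24). Tap2, a subunit of the peptide transporter, differed by -0.92 (SE 0.31; adjusted p = 0.22). In the slope fit Psmb8, Tap1, Tap2 and H2-Q7 were called lower. The median deviation of the 16 genes was -1.62, -1.48 and -0.85 in tumors 24, 23 and 2 and -0.80 in the Mup3-low tumor 29, and between -0.35 and 0.54 in all other members. Interferon-stimulated genes had a median of -0.46 (21 of 23 negative) and were likewise lowest in tumors 24, 23 and 2 (-1.28, -1.04 and -0.99).

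Fetal liver and progenitor genes had a median of -0.52, with 15 of 18 negative and none called. Dlk1, an imprinted Notch-like protein of hepatoblasts, was 13.22, 10.88, 8.83 and 6.61 in Mup3-low tumors 14, 27, 1 and 25 and at most 5.85 in the other 4. Of the Mup3-high tumors it was detected in tumor 3 (8.61) only. Igf2, the fetal growth factor, ran from 9.40 to 15.51 (median 15.37) against 9.15 to 15.54 (median 15.37), close to the highest value on the arrays in most tumors, and the healthy mean was 7.01. The low members were the p53 f/+ tumors 17, 15 and 18 (9.40, 11.69 and 13.72) and the Mup3-low p53 f/+ tumor 29 (9.15). Not all p53 f/+ tumors were low. Mup3-low tumor 14 was the highest member at 15.54, and middle tumors 28 and 16 were at 15.47 and 14.33. The Igf2 difference between the groups was -0.50 (SE 0.78, limma adjusted p = 0.81). Circadian clock outputs had a median of -0.54 (14 of 16 negative) and integrated stress response genes of -0.42 (14 of 18 negative), with no call. Myc averaged 5.43 against 6.15, a difference of -0.73 (SE 0.28; adjusted p = 0.28), and was detected in 4 of 9 against 8 of 8 tumors. Met, the receptor of hepatocyte growth factor, differed by 0.35 (SE 0.23; adjusted p = 0.51).

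Healthy liver in a sample is a possible source of Mup3, and its part in the ranking was not tested. The percentages of the healthy median that each tumor kept are given beside each other instead. Tumor 24 held 17.7% of the healthy Mup3 but 0.770% of Cyp8b1 and 0.912% of Slc1a2, with 25.0% of Pon1 and 5.38% of Cyp2e1. Tumor 23 held 16.5% of Mup3 with 0.417% of Mup2, 0.756% of Cyp8b1 and 3.70% of Slc1a2. Tumor 15 held 5.55% of Mup3 with 47.7% of Cyp8b1, 95.02% of Cyp2e1, 51.9% of Slc1a2 and 87.0% of Pon1. Tumor 20 held 28.4% of Mup3, 52.8% of Cyp8b1, 46.9% of Cyp2e1, 66.9% of Slc1a2 and 58.9% of Pon1. Its Mup2 value, 15.68, lay close to the highest on the arrays and is not compared. Tumors 2 and 11 held 5.94 and 5.51% of Mup3 with 0.748 and 0.505% of Cyp2e1, and Slc1a2 was not detected. Within these tumors the percentages differed between genes, and the part of healthy liver in them was not tested.

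**Figure D5:**
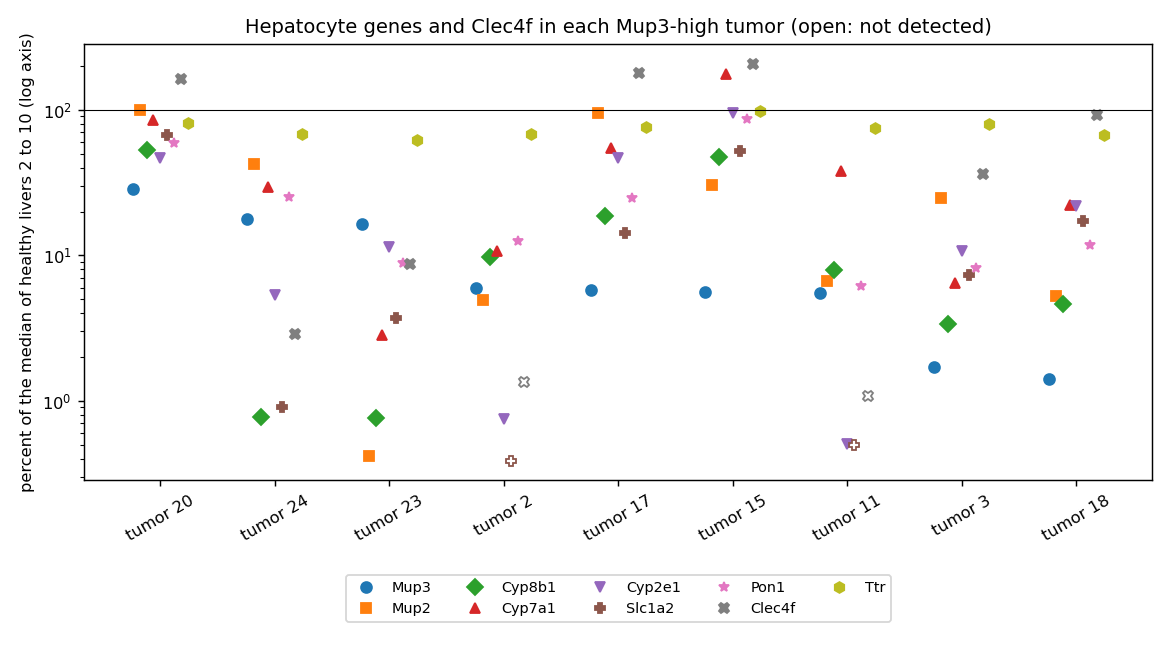
Level of 8 hepatocyte genes and the Kupffer cell gene Clec4f in each Mup3-high tumor, as a percentage of the median of healthy livers 2 to 10 (logarithmic scale, with a line at 100% and open symbols where a gene was not detected). Within a tumor the genes spread widely, for example in tumor 24 from 0.770% for Cyp8b1 to 68.0% for Ttr. The healthy Mup2 level lay close to the highest value on the arrays, so Mup2 percentages may be too high.

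Markers of other cell types were read in the same way. The summed linear signal of 19 macrophage and Kupffer cell markers ran from 9568 to 46924 in the Mup3-high and from 15025 to 72875 in the Mup3-low tumors. That of 12 neutrophil markers ran from 555 to 22287 and from 1057 to 7692, and that of 20 endothelial markers from 12646 to 29713 and from 7404 to 22581. The median difference was 0.03 for the macrophage and Kupffer cell list, with 10 of 19 positive and 9 negative. For the endothelial list it was 0.10, with 15 of 20 positive and 5 negative. Clec4f and Vsig4 mark resident Kupffer cells, and Clec4g marks sinusoidal endothelium. They averaged 2.13, 1.95 and 1.93 higher in the Mup3-high than in the Mup3-low tumors, without a call. In the middle tumors they ran from 6.05 to 11.70, 7.07 to 12.16 and 8.24 to 12.83. The Mup3-high ranges were 4.93 to 11.43, 5.04 to 11.94 and 5.87 to 13.04. High levels were thus not particular to the Mup3-high tumors, and none of these genes was called in the slope fit. Clec4f was at 163, 179 and 207% of the healthy median in tumors 20, 17 and 15, at 92.7% in tumor 18 and 36.5% in tumor 3, 2.88% in tumor 24 and 8.66% in tumor 23, while it was not detected in tumors 2 and 11. Among the Mup3-high tumors, Clec4f was therefore highest in tumors 20, 15, 17 and 18, those highest in pericentral genes. Middle tumors 10, 16 and 22 were also high in both (Clec4f 11.48, 11.70 and 10.16). In middle tumors 8, 21 and 5, however, Clec4f was 10.72, 10.63 and 9.92 with pericentral deviations of -0.10, -0.18 and -0.12. The part of resident cells in these values was not tested. T and NK cell, B cell, stellate cell, bile duct and erythroid sums overlapped between the groups.

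The expression arrays do not measure copy number, which the study measured separately by array CGH and which was not used here. Expression along chromosomes was compared only as the mean difference of the genes of each chromosome, less that of all autosomes and without the Mup genes. None of the 20 chromosomes passed an exact two-sided permutation test over the 24310 ways to split the 17 tumors, with the p-values adjusted for 20 tests. Chromosome 4, which carries the Mup cluster, differed by 0.10 over 709 genes (exact permutation p = 0.172, adjusted 0.492). Chromosome 15 had the lowest p, with a difference of -0.19 (exact permutation p = 0.00782, adjusted 0.156). The array quality was similar in the groups: 34.3 to 38.8% of probes were detected, and the 95th percentile of the signal ran from 1051 to 2827, against 428.1 in tumor 13, which was left out.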

How the data were processed

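RNA from 29 liver tumors and 10 healthy livers was hybridized to Illumina bead arrays. The intensities deposited by the authors were background-subtracted but not normalized, beside a detection score per probe (1 minus the detection p). The authors' log2 values, deposited for every sample, ranked the tumors; their liver arrays had the same quantiles, and the submitters' notes name limma without a version. The 38 labelled liver arrays with intensities were normalized with neqc (limma 3.58.1, R 4.3.3, offset 16), and 2 columns of 1 array that no label names were not used. Tumor 12 had the authors' log2 values only. Probe names came from the platform annotation: of 45281 probes, 34885 had 1 gene symbol, 18 several and 10378 none. Probes above background (detection p under 0.05) on at least 5 arrays were kept, with 1 probe a gene, that with the highest mean over the tumors, giving 11560 genes tested.

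The 27 tumors were fitted as 3 groups with lmFit and eBayes (trend, robust), the animal being a random block (correlation 0.137, statmod 1.5.0), and p-values were adjusted by Benjamini-Hochberg. The Mup genes and Cyp8b1 were not tested. The fit was tested on simulated data for this comparison (11560 genes, 200 moved, each gene's SD limited to 1 before an animal effect was added): it called 47 of 50 genes in each direction at a log2 difference of 2, 50 of 50 at 3, and 4 unmoved genes. Genes with a larger SD than this limit are harder to call, so these shares do not hold for them. In the real fit 31 of 11560 genes differed by at least 2 on the log2 scale. Of these only Pon1 and Grip1 were called. Members, gene lists and tests were chosen with earlier results of these data known. The rule for named genes was Mup3, Cyp8b1, Igf2, Mad2l1, Met, Myc, Top2a and Xist, the 12 largest calls in each direction and up to 2 called members per list. Alternatives changed the normalization, filter, block, covariates, samples and group size. The number of arrays limits the precision.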

Additional observations from a re-analysis of the deposited data

Results flagged for a closer look

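Of 148 groups of tumors examined (73 genes), 14 had a tumor far from the others of its group by Dixon's criterion, where chance gives about 1 in 20. Tumor 29, the lowest in Mup3, was apart among the Mup3-low tumors in 5 genes: Igf2 was 9.15 on the log2 scale (nearest other 15.30), Myc 7.90 (6.34), Pbk, a mitotic kinase, 4.79 (7.86), Oasl2, an interferon-stimulated gene, 4.73 (6.89), and Tap1 6.54 (7.50). Tumor 14 was the lowest of the same group in Pon1 at 5.30 (nearest other 7.67), in Cyp7b1, an oxysterol hydroxylase, at 6.97 (10.51), in Cbr3 at 9.91 (12.71) and in Slc7a11 at 5.67 (9.26). Tumor 7 was the highest in Igfbp1, an insulin-like growth factor binding protein, at 9.07 (6.53) and in Tbx3 at 5.51 (4.90).

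Among the Mup3-high tumors, tumor 20 had Xist at 8.77 (nearest other 5.04), tumor 3 had Dlk1 at 8.61 (5.12), and tumor 24 had Apoa1 at 14.90 (15.23). Without tumor 14 the fit called 0 genes higher and 1 lower, and without tumor 29 it called 2 higher and 6 lower (limma).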

How the results depend on the processing

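The 5 called genes kept their direction under all 15 alternatives and passed the threshold in 4 to 7 of them. Against 2 genes higher and 3 lower, there were 0 higher and 0 lower with the authors' log2 values, with no filter on dim probes (1882 genes at an unadjusted p under 0.05 in limma), without the animal block (the same fit as averaging tumors of an animal within a group, since none had 2 in a group), with the chip, the Trp53 genotype or Xist as a covariate, and in p53 f/f tumors only (2230 genes). The counts were 2 and 4 with median scaling, 1 and 5 with healthy livers in the fit, 1 and 1 with the tumors ranked by the normalized Mup3 value, 48 and 68 for the 6 highest against the 6 lowest, 12 and 22 for 14 against 14, and 300 and 292 for Mup3 as a continuous covariate. Added after seeing the data, the continuous fit gave 525 and 357 without tumor 20, 21 and 29 without tumor 24, 53 and 69 without tumor 23, and 0 and 0 without all 3. Leaving out each tumor of the groups in turn gave 0 to 10 higher and 0 to 11 lower. The highest counts, 10 and 11, came without tumor 3. The cause of these changes was not tested.

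Of the genes not called, the Igf2 difference reversed to 0.0306 in p53 f/f tumors. The Ttr difference, at 0.01 in the comparison, reversed to -0.0637 with median scaling, -0.044 with Xist as a covariate, -0.0384 in p53 f/f tumors, -0.00638 per unit of Mup3 and -0.0515 with the other ranking. The other results for genes not called kept their direction in all alternatives run, and in 42 cases passed the threshold. The chromosome 4 difference stayed at 0.04 to 0.13, without passing. No paired analysis was possible because the replicate numbers of the labels are unique among tumors. Only 2 animals gave a tumor to each group, and the animal entered as a random block.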
